A study of Homo sapiens with 12 samples.

Results

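Messenger RNA of 10 secreted matrix glycoproteins and proteoglycans was followed in MDA-MB-231 cells that carried a short hairpin RNA (shRNA) against HDAC5 or LSD1. The genes were FN1, SPARC, SPP1, TNC, THBS1, THBS2, LUM, DCN, VCAN and TGFBI. Every probe set of the array whose only gene symbol was among these was taken, which gave 28 of the 19064 probe sets with a single symbol, and 10 of the 11963 genes measured. MDA-MB-231 is an established human breast cancer line of the triple-negative, mesenchymal kind. The HDAC5 protein belongs to the class IIa histone deacetylases. LSD1 is a histone lysine demethylase encoded by KDM1A. All cells of all groups received lentiviral particles and grew under normal culture conditions. The 4 groups of 3 arrays were HDAC5 shRNA with a scramble shRNA set, and LSD1 shRNA with a scramble shRNA set of its own. Only the second scramble set is tagged for LSD1 in the labels, so the untagged set was used for HDAC5. All samples come from a single cell line, and neither the number of hairpins per target nor the separation of the biological replicates is given in the sources used here. Therefore p-values measure the spread between these samples, which may be technical.

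Matrix glycoproteins such as fibronectin, the thrombospondins and tenascin-C are secreted, assemble around cells and are read by integrins and other surface receptors. Proteoglycans such as versican, decorin and lumican carry glycosaminoglycan chains on a core protein and space, hydrate or organise the matrix. Osteopontin and SPARC are matricellular proteins, which act on cell attachment more than on the structure of the matrix, and breast cancer cells of the mesenchymal kind are known to secrete several of these proteins.

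The targeted genes were checked first. The HDAC5 probe set stood at 7.40 ± 0.17 (log2 signal, SD, n = 3) in scramble and 6.29 ± 0.18 with HDAC5 shRNA, 2.16-fold lower (adjusted p = 4.72e-05, limma). The KDM1A probe set stood at 9.72 ± 0.09 and 6.63 ± 0.17 with LSD1 shRNA, 8.48-fold lower (adjusted p = 5.42e-05, limma). Arrays within a group correlated at 0.9983 or above in the HDAC5 experiment and at 0.9907 or above in the LSD1 experiment, and the median SD of a probe set was 0.069 and 0.070 against 0.106 and 0.127. Genes known to be high in this line were bright. Of 6 genes expected low, whose mean log2 signal was 5.40 to 5.52 and 6.03 to 6.35 in the respective experiments, PGR was below the lower quartile of all probe sets in every group. CDH1 was below it in 3 groups and rose with LSD1 shRNA from 4.18 to 6.40, KRT5 was below it in the scramble set of the LSD1 experiment, and ESR1, ERBB2 and EPCAM were above it in every group. The array medians differed between experiments (6.59 to 6.65 and 7.05 to 7.15), so each change is taken within an experiment, and levels are set across experiments only where the scramble sets are described.

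FN1, TNC, SPARC and SPP1 carried the largest changes of bright signal. FN1 and TNC fell with HDAC5 shRNA, while FN1 and SPP1 rose with LSD1 shRNA, and SPARC rose by a like amount with either. THBS1 rose slightly with HDAC5 shRNA, and TGFBI was called in neither comparison. With HDAC5 shRNA, 5 of the 28 probe sets rose and 5 fell at an adjusted p under 0.05 (limma, adjusted over all 22215 probe sets). That is 35.7% of them, against 38.2% of all probe sets, of which 19.0% rose and 19.2% fell, so the share was near the background. With LSD1 shRNA 8 rose and 0 fell, which is 28.6%, against 3.81% of all probe sets, of which 2.11% rose and 1.70% fell. At an unadjusted p under 0.05 (limma) 1 fell, against 9.75% of all probe sets. Of the 8 called, 5 belong to FN1 and share its transcript. The members were chosen with earlier results of these data known, so the share above the background is a description and not a test.

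Counted by gene, with any probe set called, SPARC, THBS1 and VCAN had a probe set that rose with HDAC5 shRNA, FN1 and TNC had probe sets that fell, and 5 genes had none called. As background, by the brightest probe set alone, 20.7% of all genes rose and 22.4% fell. THBS1 and VCAN were not called on their brightest probe set, so the member count and this background are not alike. In the LSD1 experiment FN1, SPARC, SPP1 and LUM had a probe set that rose and 6 genes had none. By the brightest probe set alone, 2.65% of all genes rose and 1.80% fell, and FN1, SPARC, SPP1 and LUM each rose on that probe set too. The shRNA arrays lay wholly above the scramble arrays for 7 probe sets and wholly below for 5 in the HDAC5 experiment, where 46.0% of all probe sets did not overlap. In the LSD1 experiment 11 lay above and 1 below, against 24.5% of all. The median change of the 28 probe sets was 0.06 with HDAC5 shRNA and 0.26 with LSD1 shRNA (log2), beside -0.01 and -0.0013 over all probe sets. The array measures bulk RNA, so fewer cells of a type and less RNA per cell cannot be told apart.

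**Figure D1:**
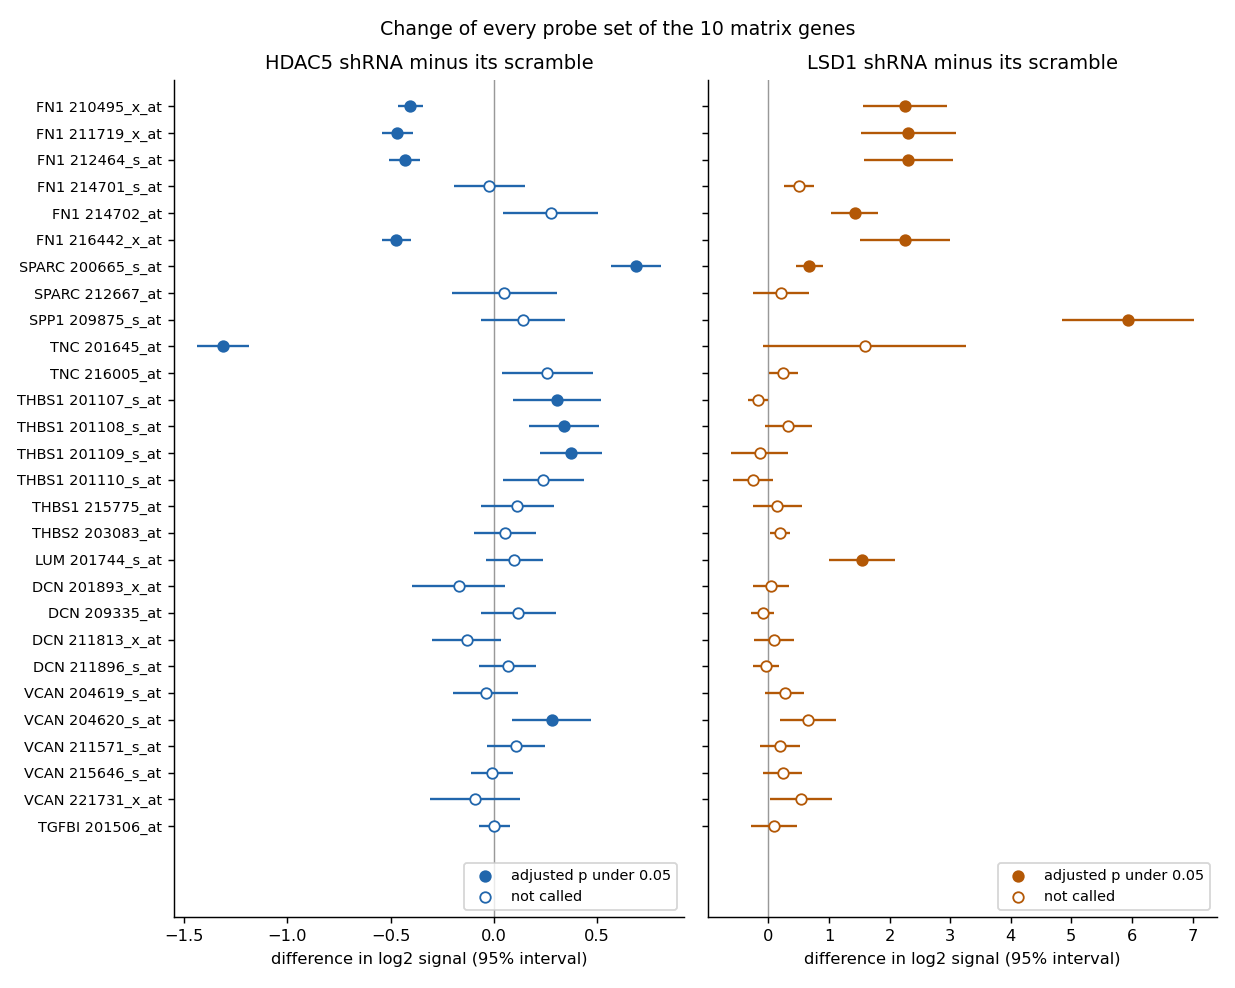
Difference in log2 signal between shRNA and scramble arrays (x axis, with 95% intervals) for each of the 28 probe sets, with filled points for an adjusted p under 0.05. TNC at -1.31 lies farthest below 0 with HDAC5 shRNA, and SPP1 at 5.94 lies farthest above 0 with LSD1 shRNA; the x axes of the panels differ.

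The proximal promoters of FN1, SPP1, SPARC and TNC, the members with the largest called changes of bright signal, are shown to set the sequence of their start regions beside the changes. They are the 250 bases before the RefSeq start of each gene (GRCh38.p14), read 5′ to 3′ on the strand of the gene, from a table that was matched for 8 of the 10 members, without LUM and DCN. FN1 lies on the minus strand of chromosome 2 (chr2:215436069-215436318), SPP1 on the plus strand of chromosome 4 (chr4:87975464-87975713), SPARC on the minus strand of chromosome 5 (chr5:151686916-151687165) and TNC on the minus strand of chromosome 9 (chr9:115118158-115118407). Capitals mark the motifs searched.
FN1: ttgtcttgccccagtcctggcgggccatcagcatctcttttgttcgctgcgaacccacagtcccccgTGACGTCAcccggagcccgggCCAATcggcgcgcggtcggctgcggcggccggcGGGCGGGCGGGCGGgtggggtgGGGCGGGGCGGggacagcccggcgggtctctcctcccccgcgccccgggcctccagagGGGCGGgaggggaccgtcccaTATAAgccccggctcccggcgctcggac
SPP1: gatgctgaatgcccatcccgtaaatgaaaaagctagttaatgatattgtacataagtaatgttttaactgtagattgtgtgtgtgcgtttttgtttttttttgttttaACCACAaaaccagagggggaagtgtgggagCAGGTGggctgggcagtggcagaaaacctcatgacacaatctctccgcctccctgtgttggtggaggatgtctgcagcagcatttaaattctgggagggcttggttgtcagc
SPARC: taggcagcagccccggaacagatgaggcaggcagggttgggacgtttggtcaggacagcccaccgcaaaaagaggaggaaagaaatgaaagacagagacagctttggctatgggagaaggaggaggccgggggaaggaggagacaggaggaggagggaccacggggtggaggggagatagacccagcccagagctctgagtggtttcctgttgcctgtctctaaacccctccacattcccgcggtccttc
TNC: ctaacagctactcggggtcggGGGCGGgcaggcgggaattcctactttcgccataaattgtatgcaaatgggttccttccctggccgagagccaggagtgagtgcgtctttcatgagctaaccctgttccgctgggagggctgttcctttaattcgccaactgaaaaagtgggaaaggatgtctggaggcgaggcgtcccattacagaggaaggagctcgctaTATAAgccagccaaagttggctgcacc
The motifs were chosen after the sequences were seen, and were searched on both strands. The TATA core, TATAA, was found in 18.9% of the 35116 promoters of this length. The CCAAT box, spelled as its name, was found in 32.0%. The GC box, GGGCGG, was found in 42.6%. The cyclic AMP response element (CRE), TGACGTCA, was found in 1.65%. The E-box, here CACCTG, was found in 17.5%. The RUNX core, TGTGGT, was found in 11.0%. The FN1 window held 1 CRE, 1 CCAAT box, 6 GC boxes, some of which overlap, and 1 TATA core that begins 28 bases before the start. TNC held 1 GC box and 1 TATA core that begins 27 bases before the start. SPP1 held 1 E-box and 1 RUNX core, each on the opposite strand, so their reverse complements are in capitals. SPARC held none of the motifs searched. The GC content was 76.4% in FN1, 44.8% in SPP1, 59.2% in SPARC and 54.8% in TNC, beside a median of 58.0% over all promoters. These matches describe the sequence, and binding was not measured.

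Fibronectin, encoded by FN1, is the main adhesive glycoprotein of provisional matrix and binds integrin alpha5 beta1. It was measured by 6 probe sets, of which 4 were bright. On 211719_x_at the scramble arrays of the HDAC5 experiment read 12.51, 12.52 and 12.51 (log2), and the HDAC5 shRNA arrays read 11.99, 12.10 and 12.03. All 3 shRNA arrays lay below all 3 scramble arrays, 1.38-fold lower (log2 change -0.47, SE 0.03, adjusted p = 5.50e-06, limma). The other bright FN1 probe sets fell by 0.40 to 0.47 on the log2 scale and did not overlap either, while 214701_s_at (-0.02) and 214702_at (0.28, adjusted p = 0.0616, limma) were not called. In 1 fit of all 12 arrays, whose spread is shared with the LSD1 experiment, no FN1 probe set was called with HDAC5 shRNA (adjusted p of the 4 bright ones 0.183 to 0.223, limma).

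In the LSD1 experiment the same FN1 probe set read 9.47 in scramble array A, 10.65 in B and 10.47 in C. It read 12.35, 12.95 and 12.22 in LSD1 shRNA arrays 1, 2 and 3. Scramble array A was the lowest and LSD1 shRNA array 2 the highest, and the groups did not overlap. The mean rose from 10.20 ± 0.64 to 12.51 ± 0.39 (SD, n = 3), 4.96-fold (log2 change 2.31, SE 0.33, 95% interval 1.52 to 3.10, adjusted p = 0.0192, limma). The other bright probe sets rose by 2.25 to 2.31, and the dimmer 214702_at rose by 1.42 (SE 0.16, adjusted p = 0.00863, limma). Its means of 3.48 in scramble and 4.91 with LSD1 shRNA were both below the lower quartile of all probe sets. On 214701_s_at the change was 0.51 and the adjusted p was 0.0520 (limma). The call on 211719_x_at was lost without scramble array B (adjusted p = 0.0617), C (0.0900), LSD1 shRNA array 1 (0.0759) or 3 (0.0610) in limma, with a change of 1.94 to 2.53 over the 6 arrays left out in turn. With arrays A and 2 both left out, an alternative added after seeing the data, the change was 1.72 (adjusted p = 0.00912, limma).

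Tenascin-C, encoded by TNC, is a large glycoprotein of remodelled matrix that modulates adhesion to fibronectin. The bright TNC probe set, 201645_at, read 11.03, 11.18 and 11.25 in scramble and 9.85, 9.81 and 9.86 with HDAC5 shRNA. Every shRNA array was more than a unit of log2 below every scramble array, and the mean was 2.48-fold lower (log2 change -1.31, SE 0.06, adjusted p = 2.89e-07, limma). In the fit of all 12 arrays its adjusted p was 0.101 (limma). In the LSD1 experiment it read 6.37 in scramble array A, 8.75 in B and 8.92 in C. With LSD1 shRNA arrays 1, 2 and 3 read 8.81, 10.26 and 9.73. Scramble array A lay far below the other two, and LSD1 shRNA array 1 lay within the range of scramble arrays B and C. The change of 1.59 was not called (SE 0.71, 95% interval -0.09 to 3.26, adjusted p = 0.280, limma), and without scramble array A it was 0.77. The other TNC probe set, 216005_at, was dim on all arrays and not called in either experiment. It changed by 0.26 with HDAC5 shRNA (95% interval 0.04 to 0.48), opposite in sign to 201645_at and without overlap of the arrays. With LSD1 shRNA it changed by 0.24.

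**Figure D2:**
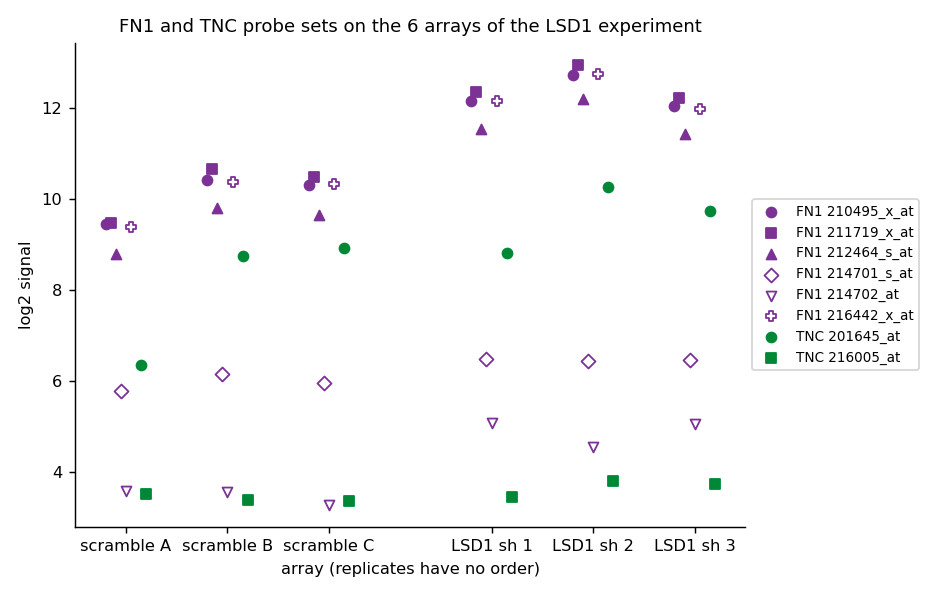
Log2 signal (y axis) of all FN1 and TNC probe sets on each of the 6 arrays of the LSD1 experiment (x axis; replicates have no order). Scramble array A lies lowest for the bright FN1 probe sets and for TNC 201645_at, where it reads 6.37.

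Osteopontin, encoded by SPP1, is an acidic phosphoprotein that binds integrins and CD44. Its single probe set read 3.67, 3.83 and 4.31 in scramble and 8.74, 10.40 and 10.49 with LSD1 shRNA. The scramble arrays lay below the lower quartile of all probe sets (5.18 to 5.26 by array), which serves as a mark of low signal because the authors' values give every probe set a number. The mean rose from 3.94 ± 0.33 to 9.88 ± 0.98 (SD, n = 3), a log2 change of 5.94 (SE 0.46, 95% interval 4.85 to 7.03, adjusted p = 0.00169, limma), the largest change among the members. The fold of 61.4 is set against a level at which signal and background are not separated. It was called with each of the 6 arrays left out in turn. With HDAC5 shRNA all 6 arrays were between 3.09 and 3.46, below the lower quartile of that experiment, and no change was called.

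SPARC, an acidic calcium-binding matricellular glycoprotein that binds collagen, was measured by 2 probe sets. On 200665_s_at the scramble arrays read 7.53, 7.51 and 7.61 and the HDAC5 shRNA arrays 8.24, 8.22 and 8.26. The groups did not overlap, and the mean was 1.61-fold higher (log2 change 0.69, SE 0.05, adjusted p = 9.26e-06, limma). In the LSD1 experiment it read 8.65, 8.62 and 8.77 in scramble and 9.44, 9.30 and 9.32 with LSD1 shRNA, again without overlap. The change was 0.67 (1.59-fold, SE 0.10, adjusted p = 0.0183, limma). It was called with only LSD1 shRNA array 2 left out, of the 6 arrays left out in turn, and the adjusted p reached 0.0992 without scramble array B. The probe set 212667_at gave 0.05 (95% interval -0.20 to 0.30) and 0.20 and was not called, so the SPARC probe sets disagree.

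Thrombospondin-1, encoded by THBS1, regulates adhesion, angiogenesis and activation of latent TGF-beta, and was measured by 5 probe sets. All 5 changes with HDAC5 shRNA were above 0, between 0.11 and 0.37, and 3 were called. The smallest was on 215775_at, whose group means were both below the lower quartile in that experiment. On 201109_s_at the scramble arrays read 8.87, 8.90 and 9.10 and the HDAC5 shRNA arrays 9.38, 9.35 and 9.26, which do not overlap (0.37, SE 0.07, adjusted p = 0.00178, limma). The brightest THBS1 probe set, 201110_s_at, read 10.02, 9.92 and 10.15 against 10.27, 10.43 and 10.10, and the arrays overlapped (0.24, adjusted p = 0.0548, limma). In the fit of all 12 arrays the adjusted p was 0.110 for 201109_s_at and 0.0839 for 201108_s_at, and 0.0215 for 201107_s_at (limma). The call on 201107_s_at, whose arrays overlap, was lost without scramble array 1 (adjusted p = 0.117) or 3 (0.104), without HDAC5 shRNA array 1 (0.105) or 3 (0.110), and with the replicate number as a block (0.0533), in limma. With LSD1 shRNA the 5 probe sets changed by -0.26 to 0.33 and none was called. Thrombospondin-2 (THBS2) was below the lower quartile on all arrays and was called in neither experiment.

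TGFBI, which encodes a secreted adhesion protein induced by TGF-beta, was bright and was called in neither experiment. It read 11.51, 11.53 and 11.47 in scramble and 11.51, 11.47 and 11.54 with HDAC5 shRNA, a difference of 0.003 (95% interval -0.07 to 0.08). In the LSD1 experiment the scramble arrays read 11.62, 10.94 and 11.33 and the shRNA arrays 11.38, 11.45 and 11.33 (0.09, 95% interval -0.29 to 0.47). The groups overlapped in both experiments.

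Of the proteoglycans, lumican (LUM), a small leucine-rich proteoglycan that binds collagen fibrils, read 2.39, 3.06 and 2.39 in scramble and 3.84, 4.49 and 4.13 with LSD1 shRNA. The groups did not overlap (1.54, SE 0.23, adjusted p = 0.0205, limma), but all 6 arrays lay below the lower quartile, so the change is among low signals. That call was lost without scramble array A (adjusted p = 0.0725) or C (0.118), or LSD1 shRNA array 1 (0.0604) or 3 (0.0815), in limma. Decorin (DCN), a relative of lumican that also binds TGF-beta, had 4 probe sets with changes of -0.17 to 0.12 with HDAC5 shRNA and -0.09 to 0.09 with LSD1 shRNA, and none was called.

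Versican (VCAN), a large chondroitin sulphate proteoglycan, had 5 probe sets, all below the lower quartile in both experiments. On 204620_s_at the scramble arrays read 3.42, 3.36 and 3.19 and the HDAC5 shRNA arrays 3.75, 3.53 and 3.53, a rise of 0.28 (SE 0.08, adjusted p = 0.0269, limma). That call was lost without scramble array 2 (adjusted p = 0.0648) or 3 (0.0968), or HDAC5 shRNA array 1 (0.0889), in limma. In the fit of all 12 arrays the adjusted p was 0.248 (limma). With LSD1 shRNA the VCAN probe sets changed by 0.19 to 0.65, and none was called. In all, 12 of the 28 probe sets in the HDAC5 experiment and 13 in the LSD1 experiment were below the lower quartile in both groups.

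**Figure D3:**
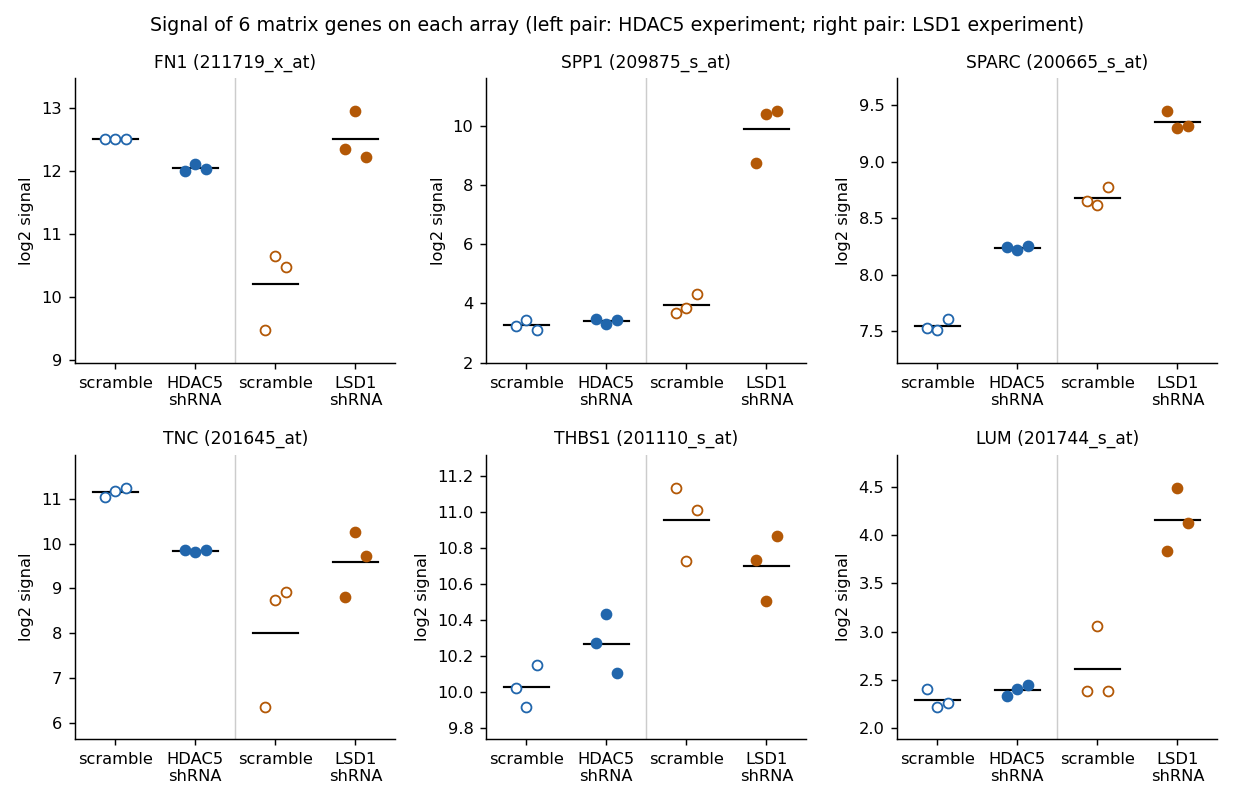
Log2 signal (y axis, scaled per panel) of the brightest probe set of 6 members on each array, by group; points are arrays and lines are group means of 3. FN1 and TNC are lower with HDAC5 shRNA, and SPP1 rises from a mean of 3.94 to 9.88 with LSD1 shRNA.

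The changes with the 2 shRNAs were then compared directly, in a limma contrast over all 12 arrays. The contrast was called for 10 of the 28 probe sets, against 26.9% of all probe sets. For FN1 211719_x_at the HDAC5 change minus the LSD1 change was -2.78 (SE 0.36, adjusted p = 0.000204, limma), and all 6 FN1 probe sets were called with the same sign. TNC 201645_at differed by -2.90 (SE 0.76, adjusted p = 0.0139, limma), a contrast called with each of the 12 arrays left out in turn. SPP1 differed by -5.80 (SE 0.50, adjusted p = 1.73e-05, limma), LUM by -1.44 and THBS1 201107_s_at by 0.47. For SPARC 200665_s_at the difference was 0.01 (SE 0.10, 95% interval -0.21 to 0.24, adjusted p = 0.947, limma), and the direct test did not call it. On some member probe sets the scramble sets of the experiments stood at unlike levels, in both directions. FN1 211719_x_at stood at 12.51 in the scramble set of the HDAC5 experiment and 10.20 in the other, and TNC 201645_at at 11.15 and 8.01. SPARC 200665_s_at stood at 7.55 and 8.68, and THBS1 201110_s_at at 10.03 and 10.96. Other probe sets of these genes stood at like levels: SPARC 212667_at at 6.37 and 6.40, THBS1 201108_s_at at 7.81 and 7.78, and THBS1 201109_s_at at 8.96 and 9.02. The array medians also differed (6.59 to 6.65 and 7.05 to 7.15), and these levels are not adjusted for that. The experiment and its processing cannot be told apart from the starting level.

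Among genes outside the members, those most like TNC 201645_at over the 12 arrays, each array taken minus its scramble mean, were TUBAL3 (Pearson r = 0.986), PTGS2 (0.978) and PLA2G4A (0.978). PTGS2, an inducible prostaglandin synthase, changed by -1.85 with HDAC5 shRNA and 2.19 with LSD1 shRNA. Those most like SPP1 were TOX3 (0.998), CAPN6 (0.994) and MYH8 (0.994), which changed by 3.59, 3.13 and 1.11 with LSD1 shRNA. The genes share arrays and normalization, and these correlations are descriptions.

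Other genes of the matrix were counted by role, with the brightest probe set per gene. Over all genes 43.0% were called in either direction with HDAC5 shRNA and 4.45% with LSD1 shRNA. At an unadjusted p under 0.05 (limma) these shares were 49.6% and 22.0%, in either direction. Of the 39 other matrix glycoproteins measured, 2 rose and 15 fell with HDAC5 shRNA (median -0.05, beside -0.02 over all genes). Up and down together, the share called was near the background. By direction, a larger share fell and a smaller share rose than over all genes, where 22.4% fell and 20.7% rose. LTBP1, which holds latent TGF-beta in the matrix, fell by 1.09 on the log2 scale, and CCN2, a matricellular growth factor, fell by 0.73, while CCN3 rose by 0.85. With LSD1 shRNA 1 rose, MATN2, a filament-forming adaptor protein, by 2.41, and 0 fell (2 at an unadjusted p under 0.05, limma; median 0.05, beside 0.01 over all genes). Of 26 proteoglycans, 1 rose and 7 fell with HDAC5 shRNA (median -0.07): the syndecan SDC1 rose by 0.85, and CSPG4 and SDC4 fell by 0.61 and 0.53. With LSD1 shRNA SRGN (1.22), SDC2 (0.95) and SDC4 (0.73) rose (median 0.02). None fell: 0 did at an adjusted p and 0 at an unadjusted p under 0.05 (limma).

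Of 24 measured genes listed as receptors of the members, 1 rose and 12 fell with HDAC5 shRNA (median -0.16). Over all genes 20.7% rose and 22.4% fell, and 43.0% were called in either direction. EGFR, the epidermal growth factor receptor, fell by 0.78, and the integrin subunits ITGB5 and ITGA3 fell by 0.70 and 0.68. With LSD1 shRNA 3 rose and 1 fell (median -0.01): CD36, a thrombospondin receptor, rose by 1.13, SDC4 is also on this list, and EGFR fell by 1.02. The other gene that rose, CALCRL (1.04, from low signal), encodes a receptor of the calcitonin gene-related peptide family and is not known as a receptor of these proteins. Among 22 genes of glycosaminoglycan synthesis and matrix assembly, 2 rose and 9 fell with HDAC5 shRNA (median -0.09), with CSGALNACT1, which starts chondroitin sulphate chains, down by 0.95, UST down by 0.61 and the hyaluronan synthase HAS2 up by 0.63. With LSD1 shRNA 1 rose, the sulphotransferase CHST7 (0.96), and 0 fell (4 at an unadjusted p under 0.05, limma; median -0.15).

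Of 17 proteases that cleave the members, 2 rose and 6 fell with HDAC5 shRNA (median -0.16). Up and down together, this share was near the 43.0% of all genes called, while by direction 20.7% of all genes rose and 22.4% fell. CTSB and HTRA1 fell by 0.66 and 0.57, and ADAMTS1 rose by 0.63. With LSD1 shRNA 0 rose (1 at an unadjusted p under 0.05, limma) and 1 fell, HTRA1, by 1.33 (median 0.08). A list of TGF-beta signalling, SRF and YAP genes also held SP1 and factors of the RUNX, ETS, FOS and JUN families. Of its 24 measured genes, 8 rose and 5 fell with HDAC5 shRNA (median 0.07). Among them TEAD1 (0.74) and ETS1 (0.56) rose and TGFBR2 (-0.69) fell. With LSD1 shRNA 0 were called (2 up and 2 down at an unadjusted p under 0.05, limma), with a median of -0.09.

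**Figure D4:**
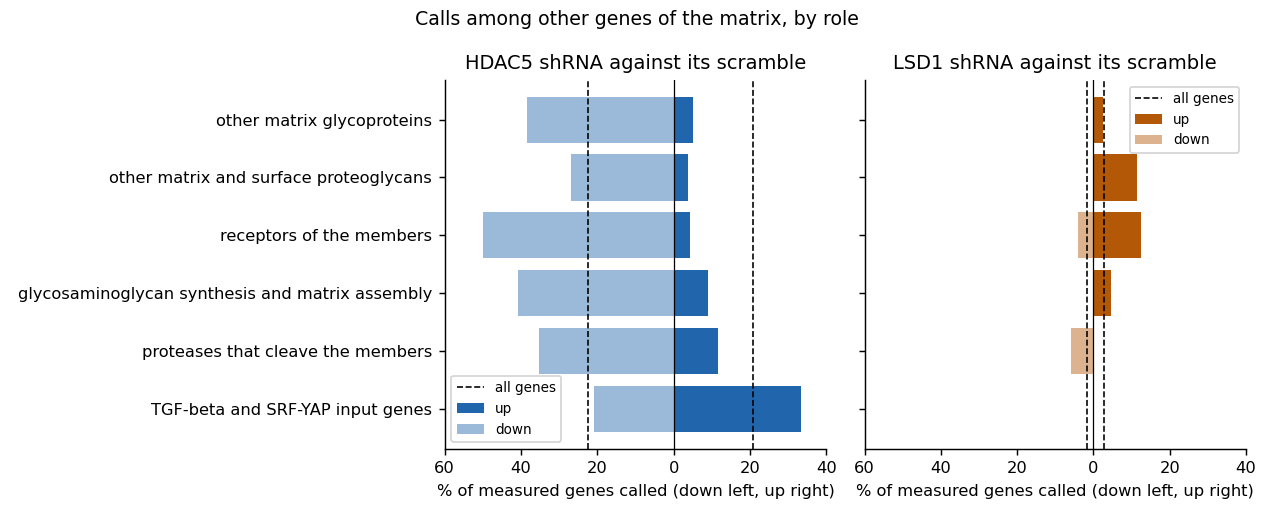
Percent of the measured genes of 6 lists, by role, that fell (left of 0) or rose (right of 0) with each shRNA; dashed lines mark the share of all genes. Of the 24 genes listed as receptors, 12 fell and 1 rose with HDAC5 shRNA, and with LSD1 shRNA 1 fell and 3 rose.

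Markers of other cell types were set beside these values. As background, 20.7% of all genes rose and 22.4% fell with HDAC5 shRNA. With LSD1 shRNA 2.65% rose and 1.80% fell. Of 10 fibroblast markers that are not members, 4 fell with HDAC5 shRNA, COL6A3 (-0.72), ACTA2 (-0.65), PDGFRB (-0.48) and THY1 (-0.23), and 0 rose (1 at an unadjusted p under 0.05, limma). Their mean signal per array was 5.26 to 5.29 in scramble and 5.02 to 5.05 with HDAC5 shRNA. With LSD1 shRNA COL3A1 rose by 7.08 and 0 fell, also at an unadjusted p under 0.05 (limma). The mean was 5.25 to 5.38 in scramble and 6.13 to 6.16 with LSD1 shRNA, with a median change of 0.01. Of the 10, 3 were below the lower quartile in each group of the HDAC5 experiment, and 5 in scramble and 4 with shRNA in the LSD1 experiment. FAP and POSTN were among them in every group, and the markers outside these counts stood above it. Of 8 endothelial markers, ENG, VWF and PECAM1 fell with HDAC5 shRNA and ENG rose by 0.93 with LSD1 shRNA. CDH5 and TIE1 were among the 5 of 8 below the lower quartile in the HDAC5 experiment and the 3 of 8 in the LSD1 experiment. Of 8 blood markers, LCP1 fell by 0.53 with HDAC5 shRNA and rose by 2.29 with LSD1 shRNA, and 3, with PTPRC among them, were below the lower quartile in each group. The part of these markers in the FN1, SPP1 and LUM changes was not tested.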

How the data were processed

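RNA of 12 samples was measured on Affymetrix 3′ expression arrays. The deposited values are log2 signals per probe set, made by the authors with RMA from the affy package per the submitters' processing notes. No version is given in the sources used here, nor whether the experiments were normalized jointly. RMA removes a change shared by most transcripts and compresses small ratios at low signal. Of 22277 probe sets, 62 control ones were left out. Symbols came from the platform annotation, updated through the gene ID to RefSeq names (GRCh38.p14) for 19052 of 19064 single-symbol probe sets. Related transcripts can contribute to probe sets named _x_at or _s_at.

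Each shRNA was compared with its scramble by limma 3.58.1 under R 4.3.3, using lmFit on 6 arrays and eBayes with a mean-variance trend. Probe sets were called at a Benjamini-Hochberg adjusted p under 0.05 over 22215 probe sets, and SEs are limma's moderated ones. The difference between the changes was a contrast over 12 arrays. An exact permutation test of 3 against 3 cannot go below p = 0.1, so none is given. The number of arrays limits the precision. The code was tested on simulated data.

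The members and lists were chosen with earlier results of these data known. Named are all members, both targets, up to 3 called genes per list and shRNA with the largest change, and the 3 genes most like the member with the largest called change. Alternatives were the probe set used per gene, a filter on dim probe sets, a joint fit, no trend, quantile normalization, a replicate block and leaving out each array.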

Additional observations from a re-analysis of the deposited data

Results flagged for a closer look

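The change with HDAC5 shRNA differed from the change with LSD1 shRNA, by a limma contrast over the 12 arrays, for 10 member probe sets, and each value here is the HDAC5 change minus the LSD1 change on the log2 scale. For FN1 the differences were -2.66 (210495_x_at), -2.78 (211719_x_at), -2.74 (212464_s_at), -0.53 (214701_s_at), -1.15 (214702_at) and -2.73 (216442_x_at). These 6 probe sets read the same gene and are not independent.

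SPP1 differed by -5.80, TNC 201645_at by -2.90, LUM by -1.44 and THBS1 201107_s_at by 0.47. The LUM probe set was below the lower quartile on all arrays. FN1 214702_at and THBS1 201107_s_at were below it by group mean in the LSD1 experiment. The 3 LSD1 shRNA arrays of THBS1 201107_s_at were tied. Ties were common: 12 member probe sets had tied arrays in the HDAC5 experiment and 9 in the LSD1 experiment. Of these, 9 and 7 were below the lower quartile in both groups. Among the probe sets called with HDAC5 shRNA, VCAN 204620_s_at and THBS1 201107_s_at had 2 tied arrays each.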

How the results depend on the processing

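No called member value changed sign under any alternative run. With HDAC5 shRNA, 8489 probe sets and 10 member probe sets were called; with 1 probe set per gene these were 5319 and 4, and in 1 fit of 12 arrays 5539 and 2. In that joint fit, which shares its spread with the more variable LSD1 experiment, SPARC 200665_s_at and THBS1 201107_s_at were called, and FN1 (adjusted p = 0.183 to 0.223, limma) and TNC (0.101) were not. Leaving out an array gave 7109 to 8088 probe sets and 9 to 10 members. With LSD1 shRNA, 847 and 8 were called, 4 members with 1 probe set per gene, and 3485 probe sets in the joint fit. Leaving out an array gave 112 to 1062 probe sets and 1 to 9 members: 329 and 6 without scramble array A, 126 and 2 without B, 112 and 1 without C, 189 and 1 without LSD1 shRNA array 1, 1062 and 9 without 2, and 230 and 3 without 3. Without A and 2 together, chosen after seeing the data, 1523 probe sets were called. The contrast of the changes called 5973, and 4846 to 6560 with an array left out, with 10 to 12 members. Signal near background limits what can be said of LUM, VCAN, THBS2, TNC 216005_at and the DCN probe sets 209335_at and 211896_s_at. The same limit applies to SPP1 and THBS1 215775_at in the HDAC5 experiment. In the LSD1 experiment this also holds for FN1 214702_at, THBS1 201107_s_at and DCN 211813_x_at, whose group means were below the lower quartile.

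The HDAC5 experiment shares replicate numbers between its groups. With the number as a replicate block, 7621 probe sets and 9 member probe sets were called, and THBS1 201107_s_at had an adjusted p of 0.0533 (limma). Same-numbered arrays did not deviate together (r = -0.05, -0.21 and -0.14), and none correlated best with its own number, so the numbers were not taken to pair the samples. No paired analysis was possible in the LSD1 experiment because its scramble replicates carry letters and its shRNA replicates numbers.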
